A study of Arabidopsis thaliana with 4 samples.

Results

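Jasmonate nuclei were defined by the RNA of 8 genes. A nucleus belonged to the set when at least 3 of the 8 genes had 1 or more RNA counts and the 8 genes together made up at least 0.1% of its RNA counts. Of 23532 nuclei kept, 1125 (4.78%) met this rule. The set was very uneven between libraries: 96.7% of its nuclei came from 1 library, control replicate 2, and 37 came from the other 3 libraries.

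The nuclei came from 5 mm root tips of Arabidopsis thaliana Col-0, the wild type accession of the study, in 4 libraries. Stress replicates 1 and 2 were from plants under osmotic stress, which the study imposed with sorbitol in the medium, and control replicates 1 and 2 were from plants on the same medium without it. RNA counts and peak counts (transposition events in open chromatin) were read from the same nuclei. The labels give root as the tissue and name no cell type. Each library is named below by its group and replicate number (stress 1, stress 2, control 1 and control 2), and a level is given as CPM, the counts of a gene per 1000000 RNA counts of the summed nuclei.

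Jasmonates are lipid hormones of wounding and defence. They are made from plastid fatty acids by lipoxygenases, allene oxide synthase and allene oxide cyclase, and are finished in the peroxisome by OPR3 and the enzymes of beta-oxidation. JAR1 joins jasmonic acid to isoleucine, and this conjugate brings the receptor COI1 and a JAZ repressor together. The JAZ protein is then broken down and MYC2 and related transcription factors are freed. JAZ genes and the genes that inactivate the hormone are themselves targets of MYC2, so that an active response is seen in the RNA of its own repressors. Of the 8 genes of the rule, AOC1 and AOC2 encode allene oxide cyclases. ILL6 encodes an amidohydrolase that splits jasmonate conjugates and CYP94B1 a cytochrome P450 that oxidises them. AT5G05600 and AT2G38240 encode oxygenases that use 2-oxoglutarate, and NAC3 and WRKY38 encode transcription factors. AOC1 and AOC2 lie next to each other and are close copies, so the split of reads between them is uncertain.

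Since MYC factors bind G-boxes, the promoters of the JAZ genes with one are shown. Promoters were taken as 250 bases before to 50 after the annotated gene start in RefSeq TAIR10.1. The search was for CACGTG, which MYC2 and its relatives bind, and for its variant AACGTG, on both strands (matches of the 2 cannot overlap). CACGTG was present in 5 of 13 JAZ promoters (38.5%) and in 7.68% of all 27443 protein-coding promoters. AACGTG was present in 5 of 13 JAZ promoters (38.5%) and in 8.95% of all. In other lists described below, CACGTG was present in 2 of 6 promoters of heat shock genes and 2 of 6 of NAC factors. It was in 3 of 11 of wound and damage genes and 3 of 11 of tryptophan and indole glucosinolate genes. Among jasmonate lists, 2 of 19 synthesis, 1 of 7 turnover and 0 of 11 perception promoters held it. AACGTG was in 4 of 11 of the tryptophan list, 4 of 12 of the abscisic acid list and 0 of 6 of heat shock. None of the 8 rule genes held CACGTG in this window and 3 held AACGTG. The W-box core TTGACC or TTGACT was present in 5 of 13 JAZ promoters and in 32.4% of all, and the GCC-box GCCGCC in none of the 13 and in 2.57% of all. A match is a match of letters, not a measured binding site. The 5 JAZ promoters with CACGTG and the promoter of the rule gene AOC1 are given below, 5′ to 3′ on the strand of the gene, with CACGTG and AACGTG (or its complement) in capitals. JAZ2 is at chr1:28150397-28150696 (minus strand), JAZ3 at chr3:6119457-6119756 (plus), JAZ7 at chr2:14572780-14573079 (plus), JAZ8 at chr1:10596102-10596401 (plus), AT3G22275 at chr3:7879761-7880060 (minus) and AOC1 at chr3:9403529-9403828 (plus).
JAZ2: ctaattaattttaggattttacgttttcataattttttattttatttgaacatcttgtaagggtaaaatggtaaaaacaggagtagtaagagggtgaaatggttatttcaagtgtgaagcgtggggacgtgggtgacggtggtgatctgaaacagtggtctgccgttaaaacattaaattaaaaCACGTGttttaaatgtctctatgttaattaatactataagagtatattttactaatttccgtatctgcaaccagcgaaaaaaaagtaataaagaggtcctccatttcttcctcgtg
JAZ3: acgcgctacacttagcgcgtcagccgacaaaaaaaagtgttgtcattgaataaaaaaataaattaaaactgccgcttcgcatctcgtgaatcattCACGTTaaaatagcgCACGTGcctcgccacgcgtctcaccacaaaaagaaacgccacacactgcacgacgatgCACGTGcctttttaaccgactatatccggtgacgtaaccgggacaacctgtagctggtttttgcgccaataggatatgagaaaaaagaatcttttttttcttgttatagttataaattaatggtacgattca
JAZ7: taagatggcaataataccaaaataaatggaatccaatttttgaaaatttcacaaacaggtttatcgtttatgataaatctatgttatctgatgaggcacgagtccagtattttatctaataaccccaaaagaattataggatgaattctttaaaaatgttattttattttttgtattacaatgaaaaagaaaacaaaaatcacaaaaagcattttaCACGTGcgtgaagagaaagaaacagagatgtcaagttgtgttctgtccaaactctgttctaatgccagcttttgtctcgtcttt
JAZ8: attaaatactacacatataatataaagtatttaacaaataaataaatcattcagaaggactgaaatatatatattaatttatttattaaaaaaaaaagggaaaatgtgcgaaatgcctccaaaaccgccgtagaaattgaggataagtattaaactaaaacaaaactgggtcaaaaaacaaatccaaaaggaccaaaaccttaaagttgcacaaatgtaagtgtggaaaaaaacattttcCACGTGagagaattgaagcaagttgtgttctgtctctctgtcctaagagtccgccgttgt
AT3G22275: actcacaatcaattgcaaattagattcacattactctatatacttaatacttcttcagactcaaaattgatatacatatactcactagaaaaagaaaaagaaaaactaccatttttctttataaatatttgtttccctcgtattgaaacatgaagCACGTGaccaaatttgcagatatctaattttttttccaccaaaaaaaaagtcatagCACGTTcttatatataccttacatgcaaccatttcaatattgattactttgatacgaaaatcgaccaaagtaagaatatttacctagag
AOC1: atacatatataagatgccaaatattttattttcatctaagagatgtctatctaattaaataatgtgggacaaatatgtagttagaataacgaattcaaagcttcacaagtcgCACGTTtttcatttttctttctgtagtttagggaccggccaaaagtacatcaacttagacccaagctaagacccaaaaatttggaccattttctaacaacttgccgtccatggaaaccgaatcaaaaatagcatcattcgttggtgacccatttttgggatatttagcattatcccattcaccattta
JAZ3 carried a pair of CACGTG copies, and in JAZ7 and JAZ8 the single copy lay close to the gene start. The RNA values of these genes are given below.

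The set held 8 of 7687 nuclei in stress 1 (0.104%) and 12 of 6499 in stress 2 (0.185%), against 17 of 3213 in control 1 (0.529%) and 1088 of 6133 in control 2 (17.7%). Exact Clopper-Pearson 95% intervals were 0.0449 to 0.205% in stress 1 and 0.0954 to 0.322% in stress 2, against 0.309 to 0.846% in control 1 and 16.8 to 18.7% in control 2. They cover counting error only. Both stress libraries lay below both control libraries, and the gap between the 2 controls was far larger than that between control 1 and the stress libraries. The stress share minus the control share was −8.99 percentage points, and −0.385 points without control 2. The two-sided exact permutation test of the 4 shares gave p = 0.333, the smallest value that 2 libraries against 2 can reach. Nuclei were not removed as doublets, and 26 to 81 barcodes were shared by each pair of libraries, none of them a jasmonate nucleus in both.

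**Figure D1:**
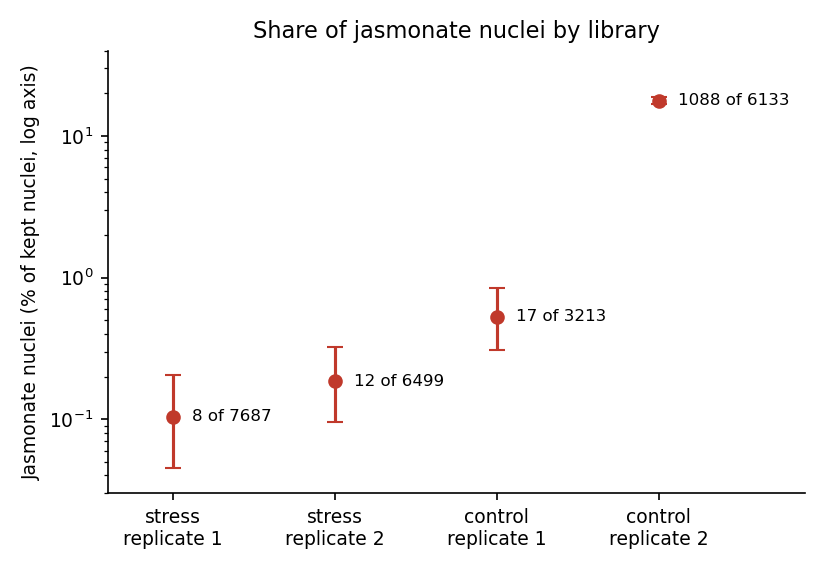
Share of kept nuclei that met the rule, in percent on a log axis, for each library, with exact 95% intervals as bars and the number of nuclei beside each point. Stress 1, stress 2 and control 1 lie between 0.104 and 0.529%, and control 2 lies at 17.7%.

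Control 2 stood apart under each other form of the rule, and the other 3 libraries then held few nuclei. With each nucleus thinned to 1000 RNA counts, 0 nuclei of stress 1 and 1 of stress 2 met the rule, against 2 of control 1 and 283 of control 2 (4.61%). With at least 4 of the 8 genes asked for, 2 and 0 nuclei of stress 1 and stress 2 were left, against 0 and 529 of control 1 and control 2, so that stress 1 was above control 1 (exact permutation p = 1). The number of genes detected also differed. In stress 1, 6 of the 8 jasmonate nuclei had exactly 3 rule genes, as did 12 of 12 in stress 2, against 17 of 17 in control 1 and 559 of 1088 in control 2. Of the rest in control 2, 322 had 4 genes and 207 had 5 or more.

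The limit of 0.1% cut a continuous range. In control 2, 39 jasmonate nuclei had marker shares between 0.1001 and 0.110%, and 33 nuclei with at least 3 rule genes fell just short, between 0.0905 and 0.0999%. In all, 318 nuclei of control 2 had 3 rule genes but too small a share, and their median RNA count was 9554, against 3223 in the jasmonate nuclei. Nuclei left out by the share limit alone were thus deeper than those taken.

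The 8 genes chose the set, so their levels in it describe the rule. Summed, they reached 1311 CPM in jasmonate nuclei of stress 1 (89.5 outside), 1618 in stress 2 (97.9 outside), 1471 in control 1 (102 outside) and 2443 in control 2 (363 outside). AT5G05600 was the highest of them in every library, with 437, 864, 683 and 949 CPM in jasmonate nuclei of stress 1, stress 2, control 1 and control 2, against 62.1, 68.1, 62.1 and 190 CPM outside. AOC1 reached 257 and 36.8 CPM in jasmonate nuclei of stress 1 and stress 2, against 158 and 294 CPM in those of control 1 and control 2. CYP94B1 had 0 counts in the 8 nuclei of stress 1. It had 193 CPM in jasmonate nuclei of control 2, against 25.4 CPM outside. In control 2 each gene was also left out in turn and the rule applied to the other 7, as a description. The gene left out was then 1.65-fold (WRKY38) to 8.87-fold (AOC2) higher inside than outside, with AT5G05600 at 844 CPM inside and 259 CPM outside. The largest ratios were those of AOC2 and AOC1 (7.70-fold). As these are close copies, with either left out the other stayed in the rule, so neither was fully held out. Among the remaining genes NAC3 had the largest ratio, 4.67-fold. In the other 3 libraries the level of a gene left out could not be read, as nearly all of their nuclei had exactly 3 rule genes.

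Genes that the rule did not use were compared between jasmonate nuclei and the nuclei outside it in each library. The test planned for this comparison asked for at least 20 jasmonate nuclei per library, which control 2 alone met. Fits over all 4 libraries were tried and left out after their results were seen, as the methods describe, and the nuclei were chosen on their RNA. The values below are therefore a description with no test. Of 8879 genes with at least 20 CPM in the higher set of control 2, 1481 (16.7%) were at least 2-fold higher in its jasmonate nuclei and 1301 (14.7%) at least 2-fold lower. Higher in jasmonate nuclei in all 4 libraries were 1570 genes (17.7%), and lower in all 4 were 2191 (24.7%). The median log2 ratio of all these genes in control 2 was 0.00. The jasmonate nuclei of stress 1, stress 2 and control 1 held only 38887, 54390 and 76139 RNA counts. A gene near 20 CPM has few counts there, and a gene without counts is read as lower. The shares over all 4 libraries thus depend on depth, and they are a loose comparison for more abundant genes.

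The JAZ repressors were higher in the jasmonate nuclei of all 4 libraries. The 13 genes together reached 3497 CPM in jasmonate nuclei of stress 1 (95% Poisson interval 2934 to 4137), against 979 CPM outside, and 3493 CPM (3014 to 4027) in those of stress 2, against 1056 CPM outside. In control 1 they reached 4636 CPM (4165 to 5146) in jasmonate nuclei, against 812 CPM outside, and in control 2 6998 CPM (6918 to 7079), against 2419 CPM outside. The level inside was above that outside in all 4 libraries, by 2.89-fold in control 2 to 5.71-fold in control 1. The nuclei of control 2 outside the rule were themselves higher than those outside in the other libraries. Of 11 measured JAZ genes in control 2, 9 were at least 2-fold higher and 0 at least 2-fold lower (the share over all genes was 16.7%), with a median log2 ratio of 1.34. The same 9 were higher in all 4 libraries, as were 17.7% of all genes.

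JAZ1 was the most abundant in every library, with 1286 and 1011 CPM in jasmonate nuclei of stress 1 and stress 2 (392.2 and 421 CPM outside), and 1432 and 1755 CPM in those of control 1 and control 2 (344 and 694 CPM outside). JAZ7, another JAZ repressor, came next in control 2, with 617 and 496 CPM in jasmonate nuclei of stress 1 and stress 2 (141 and 159 CPM outside), and 827 and 1699 CPM in those of control 1 and control 2 (93.0 and 513 CPM outside). Both were higher inside the set in every library. JAZ10, which has splice forms that resist breakdown, had 206 and 110 CPM in jasmonate nuclei of stress 1 and stress 2 (25.9 and 28.1 CPM outside), and 407 and 721 CPM in those of control 1 and control 2 (50.02 and 228 CPM outside). JAZ9 had the largest ratio of the JAZ genes in control 2, 450 CPM inside against 101 CPM outside (4.45-fold). The counts behind these values in the 37 nuclei are few, 8, 6 and 31 counts for JAZ10 in stress 1, stress 2 and control 1.

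Not all JAZ genes followed. JAZ11 had 14.2 CPM in jasmonate nuclei of control 2 and 13.8 CPM outside. JAZ12 had 127 CPM inside and 75.4 CPM outside in control 2, and in stress 1 26 CPM (1 count) inside and 85.2 CPM outside. JAZ4 stayed under 10 CPM in both sets of control 2, and AT3G22275, annotated as a jasmonate ZIM-domain protein, had 0 counts in the 37 nuclei and 36.0 CPM inside against 20.3 CPM outside in control 2. JAZ9, JAZ10 and JAZ1 had neither CACGTG nor AACGTG in their windows and were 4.45-fold, 3.16-fold and 2.53-fold higher in control 2, and JAZ8, with CACGTG beside its start, was 3.48-fold higher in control 2.

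**Figure D2:**
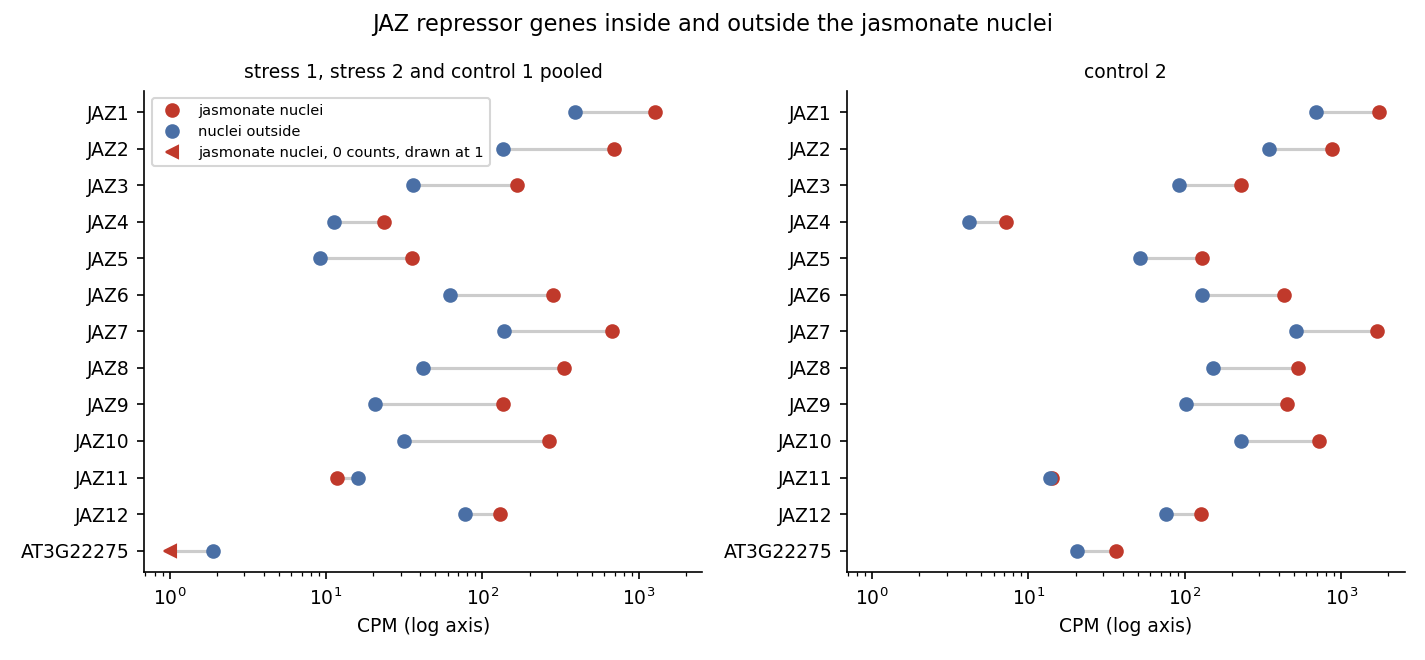
Level of the 13 JAZ genes in CPM on a log axis, in jasmonate nuclei (red) and nuclei outside the rule (blue), for stress 1, stress 2 and control 1 pooled (left) and control 2 (right). A red triangle stands for 0 counts. JAZ1 and JAZ7 lie furthest to the right in control 2, at 1755 and 1699 CPM inside, and JAZ11 shows 14.2 CPM inside and 13.8 CPM outside.

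Among the genes of jasmonate synthesis the levels were more mixed. The 19 genes summed to 3112 CPM in jasmonate nuclei of stress 1 (1557 outside), 1986 in stress 2 (1613 outside), 3533 in control 1 (1465 outside) and 3768 in control 2 (1985 outside). The interval in stress 2, 1629 to 2397 CPM, came close to its outside level. In control 2, 8 of 14 measured genes were at least 2-fold higher and 0 at least 2-fold lower (median log2 ratio 1.07), and 5 were higher in all 4 libraries. Over all genes, 16.7% were at least 2-fold higher and 17.7% were higher in all 4 libraries. OPR3, the reductase of the peroxisomal step, had 489 and 239 CPM in jasmonate nuclei of stress 1 and stress 2 (98.7 and 109 CPM outside), and 565 and 1122 CPM in those of control 1 and control 2 (112 and 340 CPM outside). AOS, the allene oxide synthase, had 154 and 73.5 CPM in jasmonate nuclei of stress 1 and stress 2 (57.7 and 59.7 CPM outside), and 91.9 and 261 CPM in those of control 1 and control 2 (38.2 and 97.7 CPM outside). OPR3 stood clear of its outside level in each library, whereas AOS in stress 2 and control 1 rested on 4 and 7 counts.

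LOX3, a lipoxygenase, was 3.04-fold higher in control 2. ACX1, an acyl-CoA oxidase, was 2.64-fold higher there but was lower inside in stress 1 and stress 2. AOC3, next to AOC1 and AOC2 and similar in sequence, was 2.08-fold higher. JAR1 had 108 CPM inside and 50.8 CPM outside in control 2, but 51.4 CPM (2 counts) inside and 57.4 CPM outside in stress 1. AOC4, the cyclase gene on another chromosome, was lower inside in all 4 libraries, with 51.0 CPM inside and 83.4 CPM outside in control 2. The beta-oxidation genes AIM1 and KAT2 were at 1.10-fold and 1.02-fold there. DAD1, LOX2 and JMT had 0 counts in all jasmonate nuclei and at most 5 counts outside in any library.

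Genes that remove the hormone were higher as well. CYP94B3, which oxidises the isoleucine conjugate, had 386 and 368 CPM in jasmonate nuclei of stress 1 and stress 2 (74.6 and 88.2 CPM outside), and 355 and 1139 CPM in those of control 1 and control 2 (67.1 and 319 CPM outside). It was higher inside in all 4 libraries and was 3.57-fold higher in control 2. IAR3, an amidohydrolase like ILL6, was 3.60-fold higher in control 2, at 399 CPM inside and 111 CPM outside. ST2A, which sulphates a hydroxylated jasmonate, was the exception, with 12.5 CPM inside and 23.9 CPM outside in control 2. JRG21 and CYP94B2 had at most 6.49 CPM in jasmonate nuclei, and AT3G11180 had 0 counts in all of them.

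The receptor and the transcription factors differed little. The 11 genes of perception and transcription summed to 463 CPM in jasmonate nuclei of stress 1 (470 outside), 478 in stress 2 (495 outside), 644 in control 1 (423 outside) and 711 in control 2 (518 outside). In control 2, 1 of 9 measured genes was at least 2-fold higher, near the share over all genes of 16.7%. It was JAM1, a bHLH repressor of the response, with 92.0 CPM inside and 36.8 CPM outside. MYC2 had 342 CPM inside and 230 CPM outside in control 2 (1.48-fold). COI1 had 22.8 CPM inside and 31.8 CPM outside, and was lower inside in all 4 libraries, on 0, 1 and 0 counts in stress 1, stress 2 and control 1. Of the response effectors, TAT3, a tyrosine aminotransferase, had 331 CPM inside and 128 CPM outside in control 2. VSP1 stayed at 11.5 CPM inside, VSP2 was near 0, and the defence genes PDF1.2 and THI2.1 had 0 counts in both sets of every library.

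**Figure D3:**
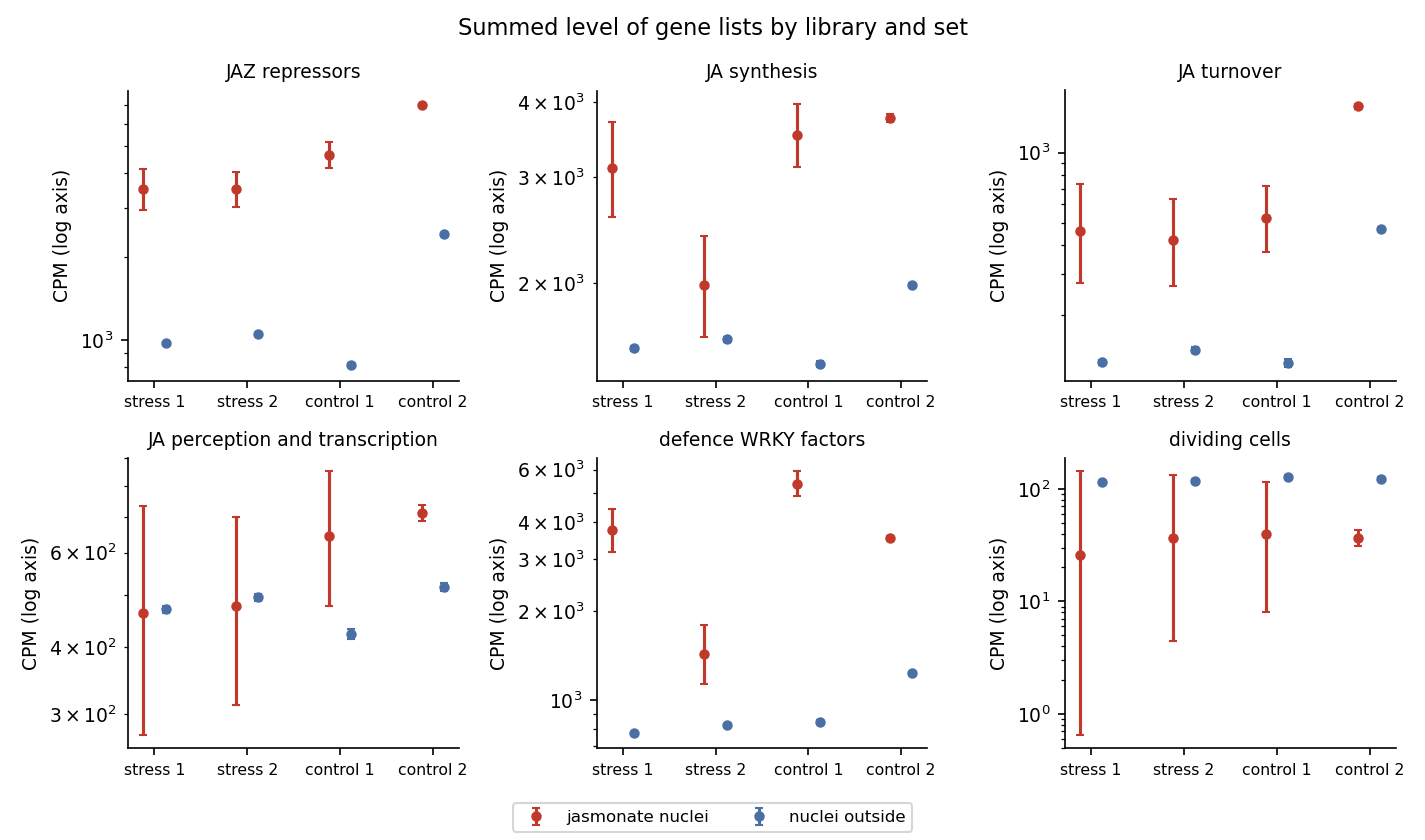
Summed level of 6 gene lists in CPM on log axes, in jasmonate nuclei (red) and nuclei outside the rule (blue) of each library, with exact Poisson 95% intervals. The JAZ list is at 3493 to 6998 CPM inside and at 812 to 2419 CPM outside, while the markers of dividing cells are at 25.7 to 39.4 CPM inside and 115 to 128 CPM outside.

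Defence and wound genes were higher in the same nuclei. The defence WRKY list summed to 3754 CPM in jasmonate nuclei of stress 1 (772 outside), 1434 in stress 2 (823 outside), 5385 in control 1 (844 outside) and 3541 in control 2 (1233 outside). WRKY40, a repressor in defence, had 2057 and 735 CPM in jasmonate nuclei of stress 1 and stress 2 (380 and 403 CPM outside), and 2312 and 1815 CPM in those of control 1 and control 2 (358 and 681 CPM outside). WRKY18, its partner, was 4.39-fold higher in control 2. Of the 11 wound and damage genes, all measured in control 2, 8 were at least 2-fold higher there and 6 were higher in all 4 libraries. Over all genes these shares were 16.7% and 17.7%. RRTF1, an ERF transcription factor, had 1248 CPM inside and 438 CPM outside in control 2, and ZAT10, a zinc finger repressor of stress responses, 708 and 304 CPM. Among the NAC factors, ANAC072 was 4.38-fold higher in control 2, but had 51.4 CPM (2 counts) inside and 91.4 CPM outside in stress 1.

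The other hormone lists were less uniform, and the share over all genes at least 2-fold higher in control 2, 16.7%, stands beside each count here. Of 4 measured genes of salicylic acid in control 2, 1 was at least 2-fold higher, EDS5, the transporter of the pathway (142 CPM inside and 48.6 CPM outside), and PR1, PR2 and PR5 had 0 counts in both sets of every library. Of 5 measured abscisic acid response genes, 4 were at least 2-fold higher in control 2. HB-12, a homeobox gene, had the largest ratio of these, 5.22-fold, but had 18.4 CPM (1 count) inside and 49.7 CPM outside in stress 2. The list was at 360 and 864 CPM in jasmonate nuclei of stress 1 and stress 2 (336 and 362 CPM outside), and at 591 and 508 CPM in those of control 1 and control 2 (167 and 190 CPM outside). Of 8 measured genes of tryptophan and indole glucosinolates, 1 was at least 2-fold higher, ASB1, a subunit of anthranilate synthase (438 CPM inside and 156 CPM outside). The heat shock list was at 91.9 CPM inside and 724 CPM outside in control 1, and at 128 and 133 CPM in control 2.

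Over all genes, those named were the 12 with the largest ratio and the 8 with the smallest in control 2 among genes with at least 20 CPM in the higher of the 2 sets, taken on the mean over the 4 libraries, and the same direction in all 4 libraries. They were chosen by these values. RAP2.6, an ERF transcription factor of the jasmonate and stress responses, had 360 and 1103 CPM in jasmonate nuclei of stress 1 and stress 2 (75.3 and 88.8 CPM outside), and 381 and 1617 CPM in those of control 1 and control 2 (48.4 and 310 CPM outside). It was the most abundant of the 12. BCB, a blue copper protein, had 543 CPM inside and 110 CPM outside in control 2 (4.93-fold), and 4CL5, a 4-coumarate:CoA ligase of phenylpropanoid synthesis, 147 and 23.6 CPM (6.23-fold). CYP81D1, a cytochrome P450, had 21.9 CPM inside and 2.98 CPM outside in control 2. The other 8, AT5G06570, AT1G28600, AT3G59710, AT1G15625, AT2G15760, AT1G70750, AT1G78230 and AT4G10390, had ratios of 4.84 to 6.54. CYP81D1, AT5G06570, AT1G28600, AT3G59710, AT1G15625, AT2G15760 and AT1G78230 passed the limit of 20 CPM through the jasmonate nuclei only. Their means outside were 4.01 to 19.98 CPM. In stress 2, CYP81D1, AT1G28600, AT3G59710, AT1G15625 and AT2G15760 each had 1 count inside, so their direction there rests on that count.

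Genes of cell division were among those lower in the set. CDC20.1, an activator of the anaphase-promoting complex, had 9.37 CPM in jasmonate nuclei of control 2, against 44.0 CPM outside. It had 0 counts in those of stress 1, stress 2 and control 1 (42.9, 49.5 and 38.9 CPM outside). Those sets held only 38887, 54390 and 76139 RNA counts. Each of the 8 genes lower in the set had 0 to 2 counts in each of them, so their direction there carries little weight. FZR3, a relative of CDC20.1, had 6.73 CPM inside and 33.2 CPM outside in control 2. ENODL14, an early nodulin-like protein, was at 12.7 CPM inside and 62.7 CPM outside, and IMK2, a receptor-like kinase, at 4.09 and 23.1 CPM. AT5G16250, AT5G56120, AT3G27330 and AT3G51280 made up the rest, at ratios of 0.20 to 0.22. As a list, the 5 markers of dividing cells were lower inside in all 4 libraries, at 25.7 and 36.8 CPM in jasmonate nuclei of stress 1 and stress 2 (115 and 118 CPM outside) and 39.4 and 36.8 CPM in those of control 1 and control 2 (128 and 123 CPM outside). The Poisson intervals inside, 0.7 to 143 and 4.5 to 133 CPM in stress 1 and stress 2 against 8.1 to 115 and 31.2 to 43.1 CPM in control 1 and control 2, held the outside level in both stress libraries, and lay below it in both controls.

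These ratios moved with the depth of the nuclei they were set against. In control 2, nuclei outside the rule with more RNA counts than the 90th percentile of the jasmonate nuclei gave 58.7% of all outside counts. Against outside nuclei between the 10th and 90th percentile, the JAZ ratio was 1.90 in place of 2.89, and 287 of 8715 genes (3.29%) in place of 1481 of 8879 were at least 2-fold higher. All 11 measured JAZ genes were above 1-fold, as were 45.7% of all genes, and 3 of them were at 2-fold or more (JAZ8, JAZ9 and JAZ10). Of the 14 measured synthesis genes 2 were at 2-fold or more, in place of 8, with a median log2 ratio of 0.69. Of the 11 wound and damage genes 0 were at 2-fold or more, in place of 8. JA turnover was at 2.09-fold, JA synthesis at 1.53-fold, defence WRKY at 1.93-fold, wound and damage at 1.54-fold and dividing cells at 0.395-fold under this choice. CYP94B3 was at 2.06-fold and OPR3 at 2.16-fold.

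The summed RNA level of the JAZ genes rose with the number of rule genes detected in each library. These are sums over nuclei, and the spread between single nuclei was not examined. In control 2 the JAZ list was at 1423 CPM in nuclei with 0 rule genes detected, 2412 with 1, 3601 with 2, 4473 with 3 and 6858 with 6 to 8. In stress 1 it was at 805 CPM with 0 rule genes and 1847 with 3, in stress 2 at 860 and 2613, and in control 1 at 535 and 2991. The depth of the nuclei differed along the same scale. The median RNA count was 3477 with 0 rule genes and 7110 with 3 in stress 1, against 2976 with 0 and 4323 with 6 to 8 in control 2. The median peak count in control 2 was 2108 with 0 rule genes and 8238 with 6 to 8, and in control 1 it was 486 with 0 and 14384 with 3. The part of RNA and peak counts per nucleus in these differences was not tested beyond the limits below.

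**Figure D4:**
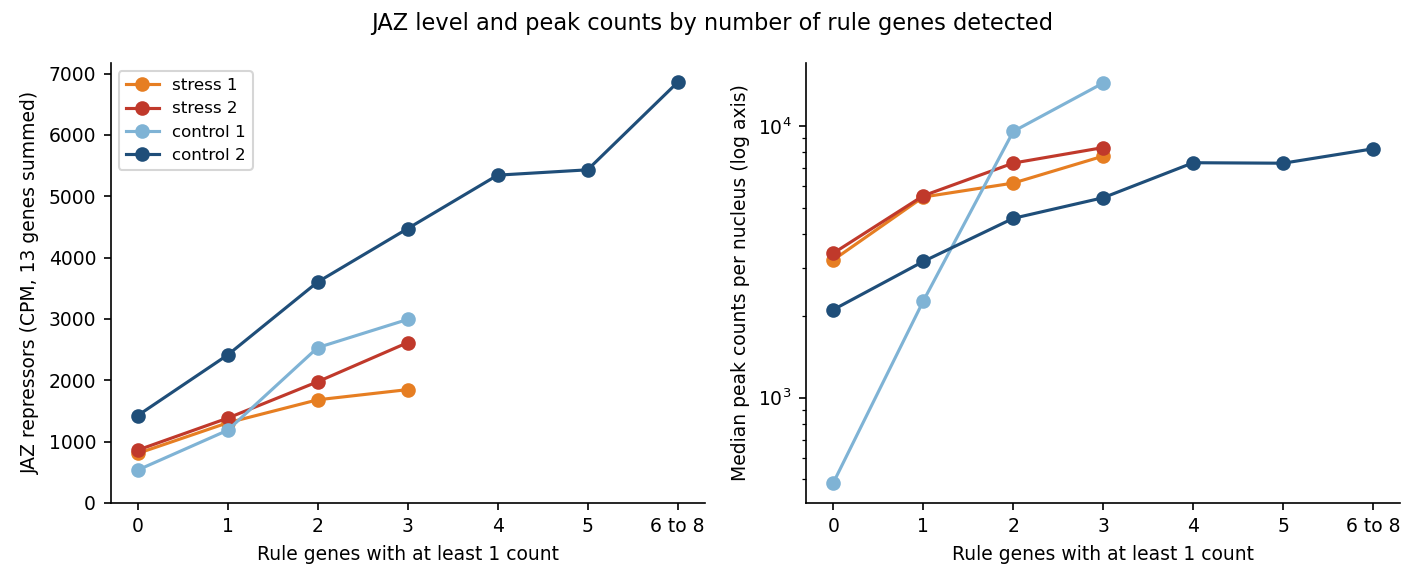
JAZ level in CPM (left) and median peak counts per nucleus on a log axis (right) against the number of rule genes with at least 1 count, for all kept nuclei of each library. The JAZ level of control 2 runs between 1423 CPM at 0 genes and 6858 CPM at 6 to 8 genes, and its median peak count between 2108 and 8238.

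Over the whole sets, jasmonate nuclei had more peak counts and like RNA counts. The median peak count was 7051 and 7548 in jasmonate nuclei of stress 1 and stress 2 (3830 and 3994 outside) and 14811 and 5928 in those of control 1 and control 2 (672 and 3128 outside). The median RNA count was 3894 and 3853 in jasmonate nuclei of stress 1 and stress 2 (3679 and 3646 outside) and 4004 and 3223 in those of control 1 and control 2 (3863 and 3261 outside). In control 1, 45.8% of outside nuclei had between 1000 and 100000 peak counts, in control 2 74.0%, and in the stress libraries 85.4 and 85.8%. With these limits set on all nuclei, the JAZ ratio of control 2 was 2.23 and the peak count ratio 1.41, and the shares of jasmonate nuclei were 0.122% in stress 1 and 0.215% in stress 2, against 1.01% in control 1 and 21.7% in control 2.

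Accessibility was a readout the rule did not use. Of 18340 regions called in all 4 libraries, 112 (0.611%) passed an adjusted p of 0.05 between jasmonate and outside nuclei in edgeR's quasi-likelihood test with library as a term. This fit took all 4 libraries with no minimum of nuclei, which was chosen after seeing how few there were. All 112 were lower in the jasmonate nuclei, and all lay within chr2:3244537-3510140, which holds 119 regions. That part of chromosome 2 is known to carry a nuclear copy of mitochondrial DNA, and reads of the 2 copies cannot be told apart. It took 0.443 and 0.668% of the peak counts of jasmonate nuclei in stress 1 and stress 2 (2.15 and 2.03% outside) and 0.416 and 0.461% in control 1 and control 2 (8.07 and 2.91% outside). The 3 regions with the largest difference were at chr2:3455464-3456357 (log2 difference −4.29 ± 0.68 SE, adjusted p = 0.000297), chr2:3438098-3438991 (−3.72 ± 0.57) and chr2:3500457-3501277 (−3.72 ± 0.56). Without that part of the chromosome edgeR called 0 of 18221 regions, with 53 at an unadjusted p under 0.05. With peak counts set to 1 in each nucleus, edgeR called 151 regions, of which 19 were higher in jasmonate nuclei and 132 lower.

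The regions at the jasmonate genes were nearly level. At the starts of JAZ2, JAZ3, JAZ4, JAZ5, JAZ8, JAZ11 and JAZ12 there were 7 regions, and the other JAZ genes, JAZ1, JAZ7, JAZ9 and JAZ10 among them, had none among the regions tested. Of the 7, 0 were called and 6 had a ratio above 1 in control 2 (57.1% of all regions did), with a median of 1.08 beside 1.02 over all regions. Higher in all 4 libraries were 0 of the 7 (7.01% of all regions). The 14 regions of the synthesis genes had a median ratio of 1.05 in control 2, and the 4 of the turnover genes 1.07. OPR3, 3.30-fold higher in RNA, had a ratio of 1.25 at chr2:2361695-2362634 (log2 difference 0.11 ± 0.31 SE). CYP94B3, 3.57-fold higher in RNA, had a ratio of 1.11 at chr3:17976533-17977277. JAZ8 had 1.08 at chr1:10595495-10596547, which covers its promoter printed above. Of the 3 regions at rule genes, that of AOC1, at chr3:9403079-9404114 and covering the promoter printed above, had the largest ratio in control 2, 1.59 (log2 difference 0.34 ± 0.51 SE over the 4 libraries, unadjusted p = 0.516). Those of WRKY38 and NAC3 were at 1.28 and 1.03. Of the regions at all these genes, 0 had an unadjusted p under 0.05 in edgeR.

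**Figure D5:**
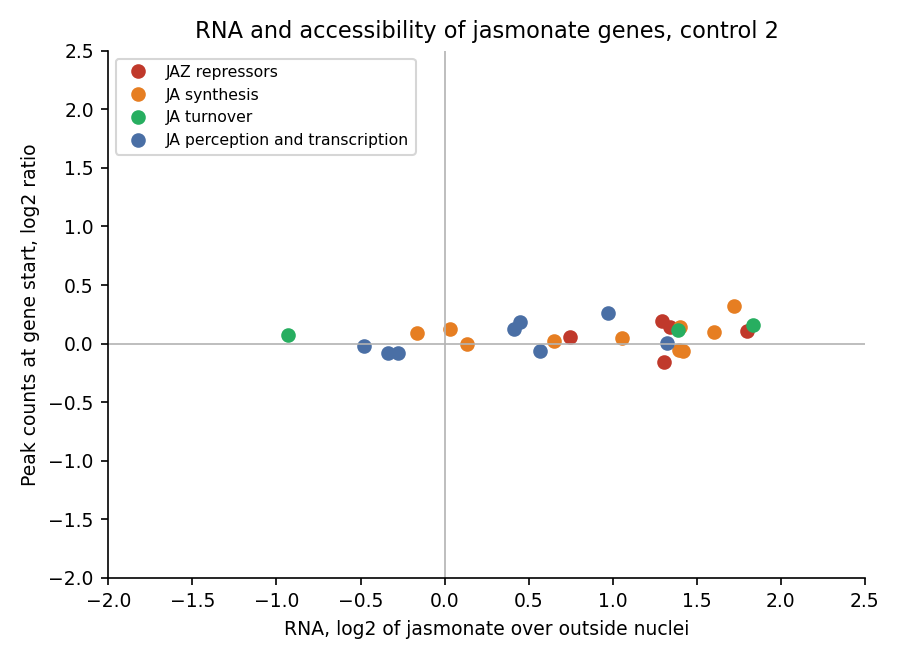
Log2 ratio of jasmonate over outside nuclei in control 2, for RNA (horizontal) and for peak counts of the region at the gene start (vertical), for genes of 4 jasmonate lists with a region and at least 20 CPM. The points spread along the horizontal axis, with CYP94B3 at an RNA ratio of 3.57 and a peak ratio of 1.11, and stay near 0 on the vertical one.

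Nuclei of control 2 were also sorted by the cell type markers detected in them. Of those with at least 2 markers of a type, 55 of 250 cortex nuclei met the rule (22.0%, exact 95% interval 17.0 to 27.7%), 344 of 1788 of pericycle and stele (19.2%), 174 of 1031 trichoblast or root hair nuclei (16.9%), 174 of 1062 of endodermis (16.4%), 46 of 460 atrichoblast nuclei (10.0%), 20 of 304 of the stem cell niche (6.58%, 4.06 to 9.98%) and 6 of 261 dividing nuclei (2.30%, 0.848 to 4.94%). The median RNA counts of these types were, in the same order, 6857, 4366, 5365, 5100, 7860, 7121 and 7274. The part of depth in these shares was not tested. A nucleus can count under several types. Of the 1088 jasmonate nuclei, 526 (48.3%) had 2 markers of no type, as did 42.9% of the outside nuclei of control 2. The part of free RNA in these marker counts was not tested. In the other libraries the 37 nuclei were spread as 3 and 4 trichoblast nuclei in stress 1 and stress 2, against 4 in control 1, and 7 and 7 of pericycle and stele, against 5. Endodermis nuclei were 1 and 6, against 4. Of the outside nuclei there, 36.1 and 35.9% were trichoblast nuclei in stress 1 and stress 2, against 18.4% in control 1. Pericycle and stele nuclei made up 63.7 and 64.6%, against 22.8%, and endodermis nuclei 35.4 and 36.0%, against 18.1%.

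The JAZ level was also higher inside within types. Among trichoblast nuclei of control 2 the JAZ list was at 5722 CPM in jasmonate nuclei and 2163 CPM outside, among endodermis nuclei at 6115 and 2143 CPM, among cortex nuclei at 5399 and 2416 CPM, and among pericycle and stele nuclei at 6030 and 2395 CPM. The ratios were 2.65, 2.85, 2.23 and 2.52. In the 6 dividing nuclei of the set the JAZ list was at 5175 CPM, against 1279 CPM in the other dividing nuclei. No ratio within types was set against outside nuclei of like depth. Over all nuclei of control 2 that choice lowered the JAZ ratio from 2.89 to 1.90. Within types, turnover genes were 2.94-fold higher in trichoblast and 3.04-fold in endodermis nuclei. Cell type markers also differed between the sets as wholes. The 7 trichoblast markers summed to 2494 and 1710 CPM in jasmonate nuclei of stress 1 and stress 2 (681 and 713 CPM outside) and 3231 and 605 CPM in those of control 1 and control 2 (667 and 383 CPM outside). The 6 pericycle and stele markers were at 831 CPM inside and 528 CPM outside in control 2 (810 CPM in outside nuclei of like depth), the 8 endodermis markers at 324 and 372 CPM, and phloem, xylem and root cap markers at 5.0 to 32.4 CPM inside. The part of these cell types in the gene differences was not tested beyond the values within types.

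Stress and control were not tested within the jasmonate nuclei, as 3 of the 4 libraries held fewer than the planned minimum of 20. Side by side, the JAZ list in jasmonate nuclei was at 3497 and 3493 CPM in stress 1 and stress 2, against 4636 and 6998 CPM in control 1 and control 2, and the trichoblast markers and WRKY list above had no such order. In the nuclei outside the rule, the same genes were tested between stress and control with edgeR. Of 20441 genes, 2884 (14.1%) rose and 2190 (10.7%) fell under stress at an adjusted p of 0.05. The outside nuclei compared differed in make-up. Pericycle and stele nuclei were 63.7 and 64.6% of them in stress 1 and stress 2, against 22.8 and 28.6% in control 1 and control 2. Within the peak count limits were 85.4 and 85.8%, against 45.8 and 74.0%. The part of cell types and peak counts in these calls was not tested. Of the 13 JAZ genes 1 rose and 0 fell, and the median log2 change was −0.99. The list was at 979 and 1056 CPM in stress 1 and stress 2, against 812 and 2419 CPM in control 1 and control 2, so that control 1 was below both stress libraries. JAZ10 was at 25.9 and 28.1 CPM in outside nuclei of stress 1 and stress 2, against 50.02 and 228 CPM in those of control 1 and control 2 (log2 change −2.56 ± 0.73 SE, adjusted p = 0.0668). Control 1 was nearer to the stress libraries than to control 2 in this gene. JAZ4 was the gene that rose, with 12.7 and 13.5 CPM under stress and 4.17 and 4.18 CPM in control (log2 change 1.44 ± 0.12 SE, adjusted p = 0.00875). Of 6 turnover genes tested 2 fell, ST2A (log2 change −2.19 ± 0.25 SE, adjusted p = 0.0133) and JRG21 (−3.57 ± 0.71, adjusted p = 0.0322), and of 15 synthesis genes 2 fell, LOX4 and OPR1, by 0.41 and 0.46 on the log2 scale, and LOX4 no longer passed edgeR's test with the replicate block (adjusted p = 0.087). With either stress library left out edgeR called 0 genes, with 3333 or 3630 at an unadjusted p under 0.05. With either control library left out it called 12681 or 12773.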

How the data were processed

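RNA counts and peak counts of the same nuclei were analysed in 4 libraries, 2 of each group. Per the labels, the authors used Cell Ranger ARC 2.0.2 with TAIR10 and name Seurat 4.3.0. The deposited matrices hold raw counts of 32833 genes and of the peaks called in each library, for 3431 to 7827 barcodes per library. Of these, 49 to 394 per library had 1000 RNA counts or fewer, so the limits of the study on nuclei had not been applied. Nuclei with over 1000 and under 25000 RNA counts were kept (23532 of 24474), and kept RNA counts per library ran from 17567594 to 37717096. Nuclei were not clustered and doublets were not removed.

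Counts were summed per library and set, since nuclei are not replicates. CPM divides by all RNA counts of the set, organelle genes included. Peaks were merged where they overlapped by 1 bp (width over 20 and under 10000 bp), and a region belonged to a gene within 500 bp of its start. Tests used edgeR 4.0.16 in R 4.3.3 (quasi-likelihood, TMM, filterByExpr, Benjamini-Hochberg under 0.05), and the SE is the size of the log2 change divided by the square root of F. Poisson and Clopper-Pearson intervals are at 95% and cover counting error only, and the floor used for a count of 0 is 3 counts. The study calls the replicates biological and does not describe how plants were divided between them, so p-values measure the spread between these libraries. In data simulated for the region test, 78% of 2-fold and 100% of 4-fold changes were recovered. The changes were placed only in regions with higher counts, at a fixed spread between libraries. Some regions at jasmonate genes lay lower, such as those of AOC1 (13.8 to 29.4 CPM outside) and JAZ11 (26.6 to 31.3 CPM outside). Recovery was not simulated for such regions.

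The planned minimum of 20 jasmonate nuclei was met by control 2 alone. Gene fits of jasmonate against outside nuclei over all 4 libraries were tried in several versions and left out after their results were seen. With filterByExpr, edgeR called 5697 of 19290 genes (29.5%), and 39 of its 186 calls on simulated data were false. DESeq2 called 1727 (8.95%) with 0 of 135 simulated calls false. With a mean of at least 50 CPM, edgeR called 2078 of 4037 genes (51.5%) with 6 of 158 simulated calls false, and against outside nuclei of like depth 842 of 4083 (20.6%) with 2 of 157 false. Limits of 100 or 250 CPM or other scaling factors gave 48.5 to 63.5%, and edgeR with limits on peak counts 1634 of 18415 (8.87%), with 34 of 178 simulated calls false. At 50 CPM the calls were 909 higher and 1169 lower in jasmonate nuclei with TMM factors, and 1217 and 741 with TMMwsp. False calls on simulated data were thus not the reason in every version. The fits were left out because the nuclei were chosen on RNA of the same nuclei and the planned minimum was not met, so those genes are given with no test. Genes were named by their ratio in control 2, at 20 CPM or more in the higher set on the mean over the 4 libraries (12 up, 8 down), in place of the planned rule with a p-value, and regions were fitted over all 4 libraries. These 3 choices followed the data. The members, the 8 genes and the lists were chosen with earlier results of these data known. All 206 list entries were found by identifier. Alternatives were another number of markers, share, depth or peak counts, DESeq2 1.42.0, RLE factors, no filter, a replicate block and each library left out. Promoters were read from RefSeq TAIR10.1, whose gene starts lay within 50 bp of the deposited ones for 32548 genes.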

Additional observations from a re-analysis of the deposited data

How the results depend on the processing

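The mean share of jasmonate nuclei was lower under stress in every alternative run. Leaving out each library gave differences between −17.6 points (without control 1) and −0.385 points (without control 2). The count of genes at least 2-fold higher in jasmonate nuclei of control 2 was 1481, 700 with limits on peak counts and 287 against outside nuclei of like depth. The count at least 2-fold lower was 1301, and 344 at like depth. The JAZ ratio of 2.89 was 2.65 with at least 4 markers, 3.04 with at least 0.2% of counts, 2.23 with limits on peak counts and 1.90 at like depth. For the 112 regions called, leaving out each library gave 59 (without control 2) to 104, and leaving out the part of chromosome 2 gave 0. Peak counts set to 1 gave 151 regions, 19 of them higher, with 1300 at an unadjusted p under 0.05 in edgeR, against 170 in the main fit. The fit without the library term gave 111 regions, 1 of them higher. Limits on peak counts gave 112 and outside nuclei of like depth 98.

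In nuclei outside the rule, 5074 genes were called between stress and control. The replicate block gave 2970, of which 2929 were shared. The deviations of libraries of the same number correlated at 0.0608 over 20441 genes, so the numbers were not taken as pairs. Leaving out each library gave between 0 and 12773 genes. DESeq2, RLE factors and no filter gave 4950, 5076 and 5270. LOX4 no longer passed with the block (adjusted p = 0.087). Tests of stress within jasmonate nuclei and of its difference from outside, and region fits with at least 4 markers or 0.2% of counts, were not run, as 3 libraries had fewer nuclei than the planned minimum. The other settings of the gene test between jasmonate and outside nuclei are not given, as that test was left out. The depth of the 37 nuclei outside control 2, 38887 to 76139 RNA counts per library, limits single genes there.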
